A study of Mus musculus with 12 samples.

Results

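The contacts of 51 promoters whose RNA was near or at 0 in both fetal and adult mouse blood stem cells were examined. A promoter was taken as silent when its FPKM (RNA level scaled to transcript length and library size) was under 0.1 in both populations and it had at least 1 listed contact within its own chromosome. These 51 promoters carry 44 gene names and 1211 of the 89545 contacts listed in all. Members were thus chosen by FPKM, and their RNA levels are a description and not a finding. A promoter also needed 1 called contact to enter, so promoters with none are absent here, as they are from the comparison set. Stage of the calls, size of the counts, distances and distal marks are not in the rule. Of the silent promoters, 14 were listed at FPKM 0 in both populations, and 0 carried the mark of differential expression of the authors' deposited table. The 3 members nearest below the limit were Wscd1, Abca9 and Cxcl10, with a higher FPKM of 0.0881, 0.0912 and 0.0972. The 3 nearest above it were Hbb-bh1, Fermt2_1 and Atf3, at 0.102, 0.107 and 0.114.

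Promoter Capture-C cuts cross-linked chromatin with DpnII, ligates ends that lie close together and enriches for chosen promoter fragments with oligonucleotide probes, so that reads count how often a promoter fragment was joined to each distal site. Haematopoietic stem cells (HSCs) from B6129SF1 mice were sorted as Lin-Sca1+cKit+CD135- from fetal liver at embryonic day 14.5 and from bone marrow at 6 to 8 weeks. Each population had 4 libraries, 2 in each of 2 batches, and 4 libraries of the HPC7 cell line were not analysed here. All 51 silent promoters belonged to the first batch, which listed 49290 contacts within chromosomes for 1939 promoters, so none of their values could be compared between batches. The comparison set was the 767 first-batch promoters with both FPKM at least 10, which had 20498 contacts and are called expressed below.

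Each deposited value pools the libraries of a population within a batch, so the spread between libraries or animals is unknown and no difference below could be compared with it. Listed contacts of silent promoters held 12228 fetal and 9900 adult counts, against 892529 and 759999 over the whole first batch within chromosomes. Reads outside listed contacts are not in these totals, so the depth of the libraries is unknown. Brackets after shares and medians give exact 95% intervals for counting error alone, and they are too narrow because adjacent bins are often called together. As a check of the sorted population, all 25 captured genes of a 32-gene stem cell list had an FPKM of at least 1 in both populations, with medians of 17.8 fetal and 29.7 adult. Genes of mature lineages were also measured. All 21 captured myeloid and macrophage genes were higher in the fetal population, with a summed FPKM of 205 against 36.7, and so were all 9 captured erythroid genes, at 99.4 against 18.2. In both of these lists 0 genes were at 0 in both populations. Of the 25 captured stem cell genes 6 were higher in the fetal and 19 in the adult population. The share of all captured genes that were higher in fetal cells was not counted. In the first batch 691 of 1939 promoters carried the mark of differential expression, so captured genes need not stand for their lineage. In RNA from a pool of cells, more cells of a type and more RNA per cell cannot be told apart. The part of such cells in the stage differences below was not tested.

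A promoter without transcripts can be held in several chromatin states. Polycomb complexes place H3K27me3 on many CpG-rich promoters of developmental regulators, and where the active mark H3K4me3 is present as well the promoter is called bivalent. An enhancer with H3K4me1 but with H3K27me3 in place of acetylation is called poised, one with H3K4me1 alone primed, and one with H3K27ac active. Polycomb-bound regions are known to contact each other over long distances in stem cells. Active promoters and enhancers gather through a different route that depends on transcription factors, cofactors and cohesin. How the authors set their marks for the distal bins is not given in the sources used here.

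The genes behind the silent promoters were of several kinds. Transcription factors of embryonic patterning were represented by Tbx3, Hand1, Sox17, Snai2, Lhx6, Hoxd8 and Zfp423. Secreted and matrix proteins included Tgfb2, a growth factor of the TGF-beta family, Sost, a Wnt antagonist of bone, Eln, which encodes elastin, and Igfbp2 and Igfbp3, which bind insulin-like growth factors. Chemokine genes were Cxcl1, Cxcl2, Cxcl10, Cxcl12, Ccl7 and Ccl12. Endothelial genes included Flt1, a VEGF receptor, Pcdh12, a vascular protocadherin, and Madcam1, an addressin of gut vessels. Ms4a7 and Gpr34 are known from macrophages and microglia. The other 17 promoters, of 16 genes, were not grouped. These groups were formed after the names had been seen.

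Promoter sequences were available for some members, from RefSeq windows of 300 bases (250 before to 50 after a transcript start, assembly GRCm38.p6). Such windows existed for 32 of the 44 gene names (72.7%), too few for a comparison of CpG content over the set. The windows below are the first listed for the genes Zfp423 and Ms4a7, whose captured promoters leaned most to fetal calls, and for the neighbouring chemokine pair that shared the most distal bins, Cxcl1 and Cxcl2. Capitals mark CpG dinucleotides in Zfp423 and Ms4a7. In Cxcl1 and Cxcl2 they mark matches on either strand to GGG and TTTCC with any 2 bases between them, a motif of NF-kappaB. Which of a gene's starts the captured fragment holds was not determined, since the captured fragments are placed on another build. Coordinates in this paragraph are those of GRCm38.p6, at chr8:87959546-87959845 for Zfp423 and chr19:11336097-11336396 for Ms4a7 (both minus strand), chr5:90890995-90891294 for Cxcl1 and chr5:90903649-90903948 for Cxcl2 (both plus strand).
Zfp423: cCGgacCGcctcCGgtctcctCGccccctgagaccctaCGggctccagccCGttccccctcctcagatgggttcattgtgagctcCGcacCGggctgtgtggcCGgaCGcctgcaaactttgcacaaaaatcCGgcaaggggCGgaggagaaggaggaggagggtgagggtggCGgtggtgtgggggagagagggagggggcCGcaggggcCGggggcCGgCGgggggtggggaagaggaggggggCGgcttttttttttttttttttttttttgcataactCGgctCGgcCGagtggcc
Ms4a7: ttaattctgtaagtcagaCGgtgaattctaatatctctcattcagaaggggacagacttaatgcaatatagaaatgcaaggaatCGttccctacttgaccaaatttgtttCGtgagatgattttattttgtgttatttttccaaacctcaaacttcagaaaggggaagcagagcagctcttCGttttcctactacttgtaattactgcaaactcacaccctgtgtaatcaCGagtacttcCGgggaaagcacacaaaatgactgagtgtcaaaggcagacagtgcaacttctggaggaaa
Cxcl1: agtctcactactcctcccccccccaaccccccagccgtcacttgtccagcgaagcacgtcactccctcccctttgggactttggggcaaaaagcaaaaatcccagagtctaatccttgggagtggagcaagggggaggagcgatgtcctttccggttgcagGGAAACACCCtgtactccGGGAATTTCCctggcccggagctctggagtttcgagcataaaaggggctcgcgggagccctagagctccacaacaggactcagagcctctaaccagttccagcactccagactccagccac
Cxcl2: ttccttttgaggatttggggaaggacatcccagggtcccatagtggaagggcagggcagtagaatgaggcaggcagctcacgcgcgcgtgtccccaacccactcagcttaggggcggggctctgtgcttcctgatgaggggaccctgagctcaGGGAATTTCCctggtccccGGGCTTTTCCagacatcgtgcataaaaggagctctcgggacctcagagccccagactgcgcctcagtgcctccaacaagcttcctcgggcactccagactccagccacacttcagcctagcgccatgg
The Zfp423 window held 21 CpG dinucleotides and 65.7% G or C, and the Ms4a7 window held 6 and 39.7%. The median over all 32851 RefSeq windows was 7 CpG, with quartiles of 3 and 20. The other listed window of Zfp423 held 7 CpG and that of Ms4a7 held 1, so CpG content depends on which start the captured fragment holds. The Cxcl1 and Cxcl2 windows each had 2 matches to the motif, which occurred in 1.63% of all windows. A match is a run of letters and not a measured binding site.

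Silent promoters were not short of listed contacts. A listed contact joins a promoter fragment to a 2 kb distal bin and was called (score above 0) in at least 1 population. The score is the −log10 of the authors' p-value, and its smallest value above 0 in this batch was 1.3. Silent promoters had a median of 17 listed contacts (12 to 21, n = 51), with quartiles of 7 and 29.5 and a range of 1 to 118. Expressed promoters had a median of 19 (17 to 21, n = 767). Fetal calls had similar medians, 12 per silent and 11 per expressed promoter. Adult calls differed, with a median of 6 (3 to 11) per silent and 12 (10 to 13) per expressed promoter.

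Contacts called in the fetal population alone were the most frequent class. A contact called at 1 stage only usually had counts at the other stage too, below the threshold. In the first batch as a whole 39% of contacts were fetal-specific, 35.7% adult-specific and 25.3% called in both. Among silent promoters 586 of 1211 were fetal-specific (48.4%, 45.5 to 51.2), 394 were adult-specific (32.5%, 29.9 to 35.3) and 231 were called in both. The corresponding shares of expressed promoters were 36.5%, 36.2% and 27.3%, so the share called in both differed by -8.23 points (-10.4 to -5.84). Of the contacts called at 1 stage only, 59.8% (56.6 to 62.9, n = 980) were fetal for silent promoters and 50.2% (n = 14902) for expressed promoters, a difference of 9.61 percentage points (6.40 to 12.7). Promoters between these classes, with a higher FPKM from 0.1 to 1, stood at 57.3% (55.0 to 59.6).

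The lean was spread over promoters. More fetal than adult calls were found at 33 of the 51 silent promoters and more adult calls at 16, where 47.5% of all first-batch promoters had more fetal and 42.9% more adult calls. Leaving out 1 promoter at a time gave fetal shares from 58.1% (without Zfp423) to 61.2%. The number of protein-coding genes near a promoter's gene moved with the result. It was counted around the gene's listed start in the GRCm38.p6 gene list and not around the captured fragment. Promoters of the same gene therefore shared a value. Silent promoters had a median of 8 such genes within 500 kb and expressed promoters 17. At silent promoters with at most 8 neighbours the fetal share was 65.3% (61.1 to 69.3, 27 promoters), against 53.2% (51.5 to 55.0) at expressed promoters with as few. At silent promoters with more neighbours it was 52.8% (48.0 to 57.6, 24 promoters) against 49.3% (48.4 to 50.2). The part of gene density in the lean was not tested.

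**Figure D1:**
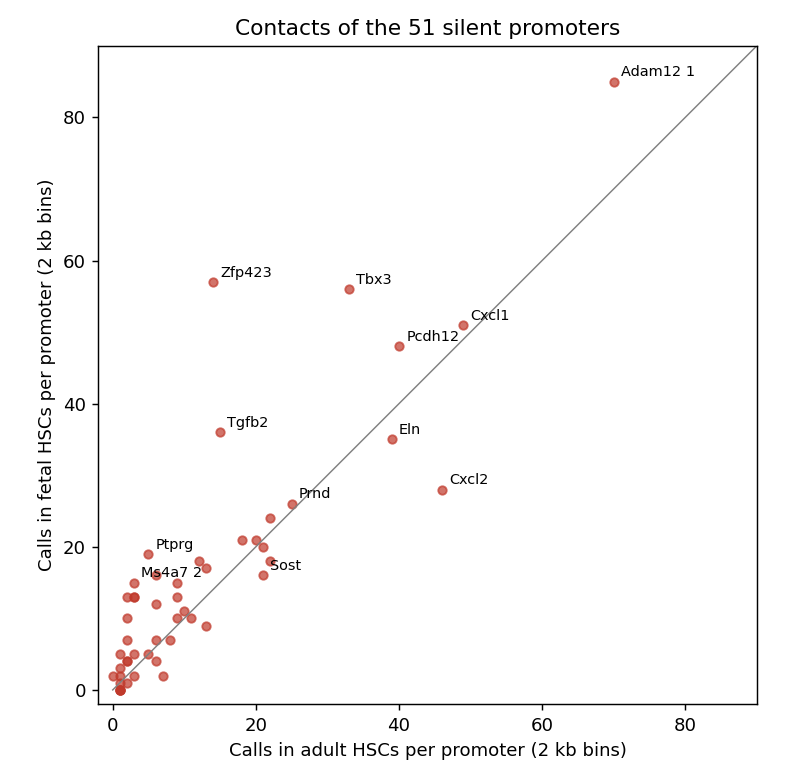
Number of 2 kb bins called in adult HSCs (x axis) and in fetal HSCs (y axis) for each of the 51 silent promoters, with the diagonal of equal numbers and some promoters named. The 33 points above the diagonal have more fetal calls, with Zfp423 (57 fetal, 14 adult) farthest above it in number, and Cxcl2 (28 fetal, 46 adult) farthest below.

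Counts per contact had the same direction at the median. They belong to contacts listed because of their calls, so they are no separate support. The level of the medians depended on how the populations were scaled. The median log2 ratio of fetal over adult counts (1 added to each) was 0.32 (0.19 to 0.42) at silent and 0.12 (0.09 to 0.13) at expressed promoters. A fetal count at least 2-fold higher was found for 335 silent contacts (27.7%), where 20.9% of all first-batch contacts met it, and the share was 8.57 points (6.07 to 11.2) above that of expressed promoters. An adult count at least 2-fold higher was found for 180 silent contacts (14.9%) and 13.8% of expressed ones, beside 14.4% overall. Thus 65.0% of the 2-fold differences of silent contacts were fetal, against 58.1% of those of expressed contacts. Once counts were scaled to equal totals in both populations, that share was 51.6% (47.0 to 56.2) for silent and 42.4% (41.2 to 43.7) for expressed contacts. The scaling factor was 1.17, the ratio of all listed first-batch counts. Without the 48 contacts of at least 1000 counts this ratio was 1.09, and scaling by that value was not tried. With scaling to equal totals the median over all contacts moved from 0.14 to -0.07. The silent and expressed medians moved from 0.32 and 0.12 to 0.12 and -0.11. Their difference was 0.206 before and 0.223 after this scaling.

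Silent promoters reached farther. Their contacts had a median distance of 236 kb (223 to 249), with quartiles of 144 and 338 kb, against 166 kb (164 to 168) and quartiles of 103 and 278 kb at expressed promoters. Fetal calls of silent promoters lay at a median of 242 kb and adult calls at 227 kb. Only 37 of their contacts (2 and 35 in the nearest distance classes) lay within 60 kb, while 499 lay between 150 and 300 kb and 357 between 300 and 1000 kb. The longest set of contacts belonged to Igfbp3, whose 21 contacts had a median distance of 1033 kb. Gene density moved with distance as well. The median was 280 kb at silent promoters with at most 8 neighbours and 177 kb at those with more, against 226 and 157 kb at expressed promoters split in the same way.

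**Figure D2:**
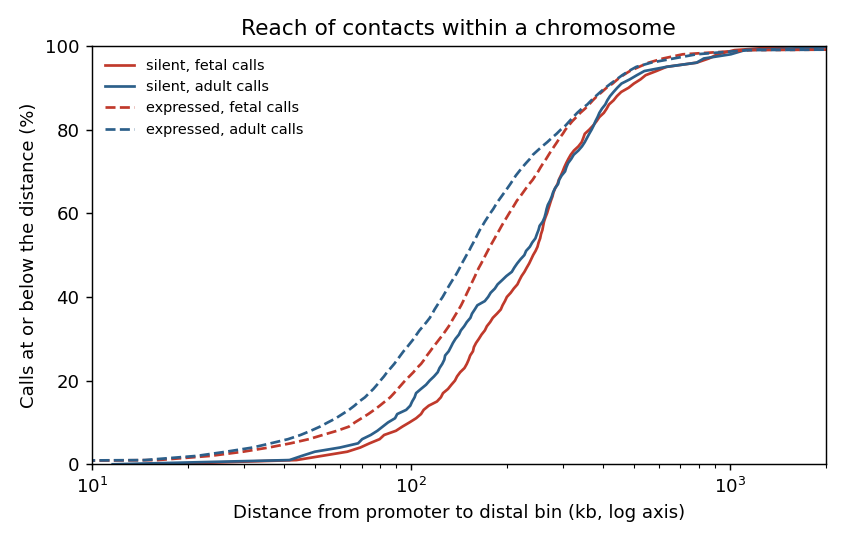
Cumulative share of calls (y axis, percent) by distance from promoter to distal bin (x axis, kb, log scale) for silent (solid) and expressed (dashed) promoters, fetal calls in red and adult calls in blue. The solid lines run to the right of the dashed ones over most of the range, with medians of 242 kb for fetal and 227 kb for adult calls of silent promoters against 171 and 149 kb.

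The fetal lean was largest at middle distances. Between 150 and 300 kb, 69.4% (64.6 to 73.9) of the stage-specific contacts of silent promoters were fetal, against 59.9% (58.5 to 61.2) for expressed promoters. The silent contacts of this class came from 44 promoters, and the share was not computed with single promoters left out. Between 60 and 150 kb the shares were 47.5% (40.7 to 54.3) and 42.1% (40.7 to 43.5). Between 300 and 1000 kb they were 58.3% (52.5 to 63.8) and 53.0% (51.3 to 54.6). Expressed promoters weighted to the distances of the silent ones gave 52.6%, still below 59.8%.

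**Figure D3:**
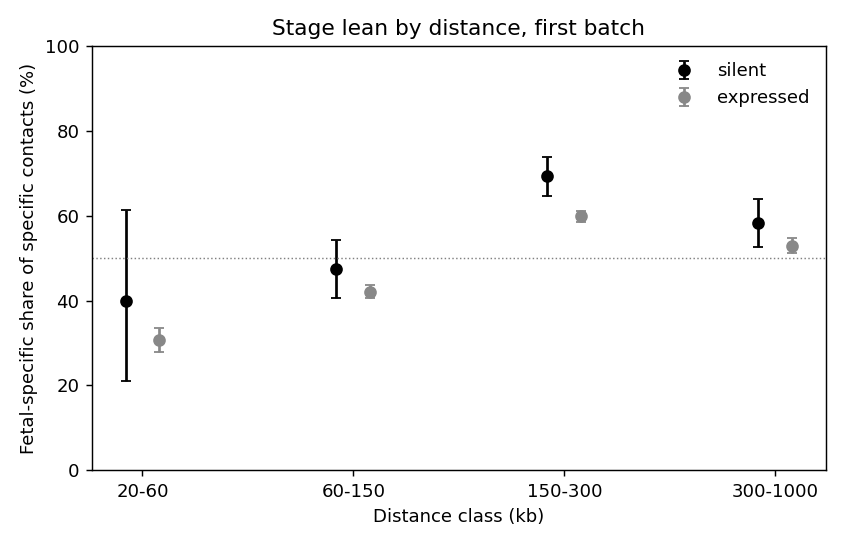
Fetal-specific share of the contacts called at 1 stage only (y axis, percent) in 4 distance classes (x axis, kb) for silent (black) and expressed (grey) promoters, with exact 95% intervals from counting error. The silent points lie above the grey ones in each class, as between 150 and 300 kb (69.4% against 59.9%). The intervals take bins as independent and are too narrow, so whether they overlap does not separate the sets.

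The distal ends of silent promoters carried fewer active marks. An active promoter mark in either population lay at the distal end of 49 of the 1211 contacts (4.05%, 3.01 to 5.31), which end in 1154 distinct bins, against 21.0% (20.4 to 21.5) for expressed promoters. An active enhancer mark was listed for 84 contacts (6.94%) against 17.9%, and open chromatin by ATAC-seq for 483 (39.9%) against 61.0%. The differences were -16.9 points (-18.0 to -15.5), -10.9 points (-12.3 to -9.27) and -21.1 points (-23.9 to -18.2). No promoter, enhancer or open-chromatin mark of any kind was listed for 701 contacts (57.9%), against 35.0% for expressed promoters. With expressed contacts weighted to the distances of the silent ones, their shares were 20.2% for active promoters, 17.4% for active enhancers and 60.1% for open chromatin. In the 27 silent promoters with few neighbouring genes active promoter marks were at 1.71% of contacts and active enhancer marks at 4.51%, against 10.0% and 20.3% at expressed promoters with as few.

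Few contacts ended in bins listed as bivalent or poised. No mark for H3K27me3 alone was listed, so Polycomb chromatin as a whole was not measured. A bivalent promoter mark was at the end of 29 contacts (2.39%, against 1.78% at expressed promoters), a difference of 0.614 points with an interval from -0.133 to 1.65. A poised enhancer mark was at the end of 22 contacts (1.82%, against 0.620%), a difference with an interval of 0.572 to 2.12 points. Pcdh12 alone held 8 of the 22 poised contacts, and without it the silent share was 1.22% and the difference 0.605 points. The bivalent difference without Pcdh12 was 0.232 points. With every promoter given equal weight the poised difference was 0.540 points. At the level of promoters, 17 of 51 (33.3%) touched at least 1 bivalent bin and 8 (15.7%) a poised one, against 26.3% and 10.4% of expressed promoters. An active promoter or enhancer bin was touched by 32 of 51 silent promoters (62.7%) and by 95.8% of expressed ones.

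**Figure D4:**
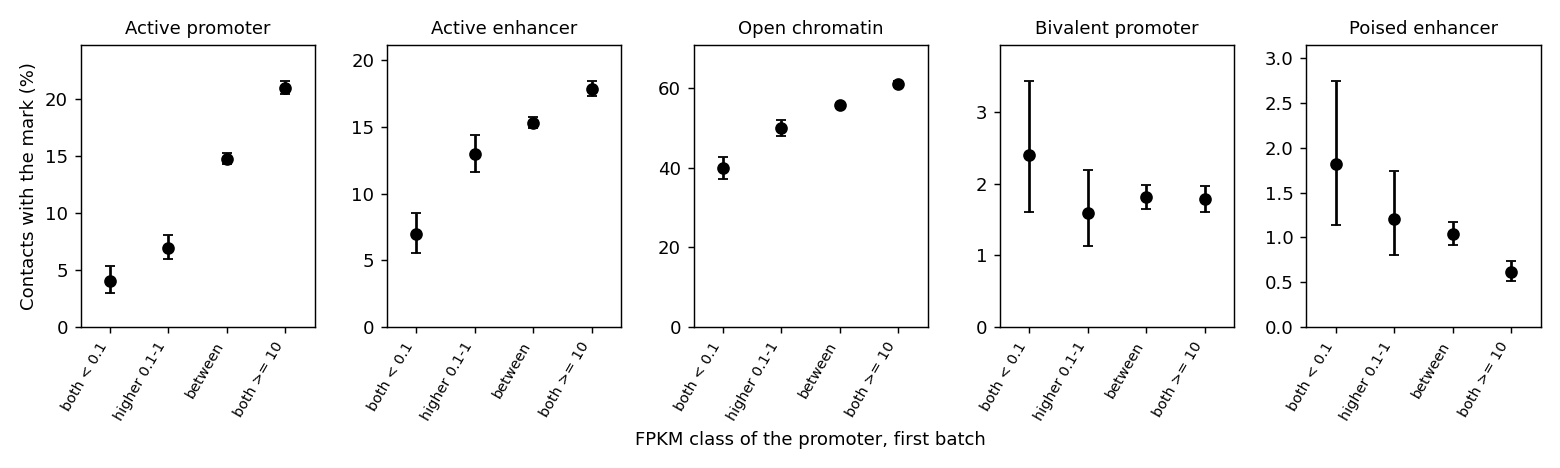
Share of contacts whose distal bin carries each mark in either population (y axes, percent, each panel on its own scale from 0) for 4 classes of first-batch promoters by FPKM (x axis: both under 0.1, the higher from 0.1 to 1, neither low nor both high, both at least 10), with exact 95% intervals from counting error. Active promoter, active enhancer and open chromatin shares are lowest for silent promoters (4.05%, 6.94% and 39.9%), while the poised share is highest there (1.82%).

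Marks listed at a single stage were compared with the stage of the contact, beside the fetal share of 59.8% over all stage-specific contacts of silent promoters. Of the 27 contacts to bins marked as active enhancer in the fetal population only, 18 were fetal-specific, 4 adult-specific and 5 called in both, so 81.8% (59.7 to 94.8) of the stage-specific ones were fetal. Of the 12 contacts to bins marked so in the adult population only, 7 were fetal-specific and 3 adult-specific (70.0%, 34.8 to 93.3). Both shares lie above 59.8%, with intervals that overlap each other widely. For active promoter marks of the adult population only, 5 contacts were fetal-specific and 1 adult-specific. For bivalent marks 10 and 2 were counted with the mark in fetal cells only, and 3 and 2 with the mark in adult cells only. Poised marks gave 4 and 1 with the mark in fetal cells only, and 1 and 5 with the mark in adult cells only. At expressed promoters poised marks gave 40 and 31 with the mark in fetal cells only. With the mark in adult cells only they gave 11 and 6 there, a fetal share of 64.7% (38.3 to 85.8). The silent share was 16.7% (0.421 to 64.1), from bins of 4 promoters, and the intervals overlap. Open chromatin listed in fetal cells only gave 39 and 21 (65.0%, 51.6 to 76.9), and in adult cells only 33 and 33. At expressed promoters the fetal shares for open chromatin were 53.5% with fetal listing only and 51.2% with adult listing only. For active enhancer marks they were 53.4% and 40.2%.

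The promoters' own chromatin was visible for 18 of the 51, whose fragment overlapped a distal bin listed for some other promoter. Such a bin is larger than the fragment and may hold more than the promoter. Open chromatin was listed at 15 of the 18. A bivalent mark was listed for Adam12_1 in both populations and for Tbx3 and Tead4 in the fetal one. An active promoter mark was listed for Ushbp1 in both populations, for Sox17 in the fetal and for Cxcl2 in the adult one. At 523 expressed promoters seen in the same way, 381 (72.8%) had the active mark and 0 the bivalent one (exact 95% interval up to 0.703%).

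Contacts with a high score were rare but mostly found at both stages. Of the contacts of silent promoters 18 reached a score of 10 (1.49%, 0.883 to 2.34), at 7 promoters, against 3.00% of expressed ones. In both populations 16 of the 18 were called, 10 had open chromatin, 2 an active enhancer mark and 0 an active promoter mark. Of the 615 such contacts of expressed promoters 576 were called in both populations, so this was not particular to silent promoters. Open chromatin lay at 532 of them, an active enhancer mark at 112 and an active promoter mark at 277. Called bins often formed stretches. Bins of a promoter at most 5 kb apart, merged into runs of at least 3, held 650 of the silent contacts (53.7%, 50.8 to 56.5) in 85 stretches, and 58.2% of expressed contacts.

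Captured promoters were seldom the partners. A distal bin held another captured promoter for 22 silent contacts (1.82%, 1.14 to 2.74) and for 7.13% of expressed ones. These 22 contacts made 23 promoter pairs at 13 silent promoters. In 18 pairs the partner had an FPKM of at least 1 in a population, and in 5 pairs the partner was itself silent. Of the 23 pairs, 7 were fetal-specific, 13 adult-specific and 3 called in both. Expressed promoters had 1533 such pairs, with 340 fetal-specific, 534 adult-specific and 659 called in both. Adult-specific pairs thus outnumbered fetal-specific ones in both sets. In 1514 of the expressed pairs the partner had an FPKM of at least 1 in a population, and in 9 it was silent.

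Adam12 encodes a membrane metalloprotease of the disintegrin family and had 3 silent promoters. Adam12_1, at chr7:141416123-141416845 of mm9, had the most contacts of all silent promoters, 118, with 85 fetal and 70 adult calls. Its FPKM was 0.0555 fetal and 0.00320 adult. Counts per contact ran from 2 to 41 in fetal cells (median 9) and from 0 to 40 in adult cells (median 7). The largest stretch covered 45 bins from chr7:140980001-141082001, at 335 to 435 kb from the promoter. It held 482 fetal and 524 adult counts with 32 fetal and 35 adult calls, so both stages showed it at similar strength. Its top bin, chr7:141046001-141048001, had 41 fetal and 29 adult counts and scores of 38.0 and 20.3. A bin 4 kb away had 15 fetal and 40 adult counts with scores of 7.19 and 33.7, so the highest bin was not the same at both stages. Of the 45 bins 10 were open and 0 carried an active promoter, active enhancer, bivalent or poised mark.

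The promoters of Adam12 also touched one another. Adam12_1 listed the bin of the promoter named Adam12, 263 kb away, with 17 fetal and 11 adult counts. The promoter named Adam12 listed the bin of Adam12_1 with 15 and 8 counts, and both contacts were called at both stages. That bin carried a bivalent mark in both populations. Adam12_1 and Adam12_2 are close neighbours and shared 10 distal bins, which were 8.47% of the first promoter's and 66.7% of the second's.

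In the group of embryonic patterning factors, 8 silent promoters of 7 genes had 189 fetal and 123 adult calls. More fetal calls were found at 5 of these promoters and more adult calls at 3. Their genes were the only ones with a silent promoter among 22 captured members of a 317-gene list of developmental transcription factors. Of their 214 stage-specific contacts 65.4% (58.6 to 71.8) were fetal. Zfp423 carried much of this, and without it the share was 57.6% (49.3 to 65.6, 87 of 151), near the 59.8% of all silent promoters. Zfp423, a zinc-finger factor of adipocyte and neuronal development, had the largest gap in number, with 57 fetal and 14 adult calls. It was listed at FPKM 0 in both populations, and its promoter lies at chr8:90327190-90327869 of mm9. Counts per contact ran from 4 to 44 in fetal cells (median 10) and from 0 to 25 in adult cells (median 6). The fetal count was higher at 55 of 67 contacts. Since 53 of the 67 were listed for a fetal call alone, this largely restates the calls. A stretch of 20 bins at chr8:90090001-90148001, 181 to 237 kb away, had 18 fetal and 4 adult calls and 190 fetal and 100 adult counts. Of these 20 bins 4 were open and 0 had an active mark.

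Tbx3, a T-box repressor of limb and breast development, had 56 fetal and 33 adult calls and was listed at FPKM 0 in both populations. Its contacts ranged from 16.0 to 1590 kb, with a median of 394 kb. Counts ran from 2 to 54 (median 8) in fetal and from 0 to 33 (median 6) in adult cells. A stretch of 8 bins at chr5:119314001-119340001, 782 to 806 kb from the promoter at chr5:120120802-120121185, was called at both stages, with 83 fetal and 75 adult counts. Its top bin, chr5:119326001-119328001, carried a poised enhancer mark in both populations and had 20 fetal and 8 adult counts with scores of 11.2 and 1.51. Tbx3 touched 4 poised bins and 1 bivalent bin in all.

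Hand1, a basic helix-loop-helix factor of heart and placenta, differed from these in its lean. It had 18 fetal and 22 adult calls, and 21 of its 28 contacts formed a single stretch at chr11:57714001-57762001, 68.6 to 115 kb away. This stretch held 309 fetal and 299 adult counts, and its top bin had 29 and 24. Sox17, a factor of endoderm and of fetal blood stem cells, had 20 fetal and 21 adult calls. Of its 30 bins 17 formed a stretch at chr1:4738001-4778001, 252 to 290 kb away, with 146 fetal and 149 adult counts. Open chromatin lay on 21 of the 30 distal bins of Sox17. It touched the promoter bin of Mrpl15, a mitochondrial ribosomal protein gene, with 9 counts at each stage. It also touched 2 bins of the promoters of Tcea1, an elongation factor gene, with 5 and 3 fetal and 10 and 7 adult counts, called in adult cells only.

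Lhx6_1, a promoter of a LIM-homeobox gene of interneurons, had 17 fetal and 13 adult calls and touched 3 bivalent bins. Hoxd8_2 had 11 fetal and 10 adult calls, all to higher coordinates, with 2 of its 15 bins bivalent. Snai2, a factor of epithelial-mesenchymal transition, had 10 and 9 calls. Its top contact lay 1167 kb away and had 12 fetal and 5 adult counts, a fetal score of 10.2 and no adult call. The remaining promoter of this group, Lhx6, had 1 adult call.

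The 6 chemokine promoters together had fewer fetal than adult calls, 111 against 128, with 3 promoters leaning to each stage. Of their stage-specific contacts 44.5% (36.5 to 52.7) were fetal. Cxcl2 carried much of the adult lean, with 12 of the 69 fetal-specific and 30 of the 86 adult-specific contacts. Cxcl1 and Cxcl2, neutrophil attractants induced by inflammatory signals, lie next to each other and were both listed at FPKM 0. Cxcl1, at chr5:91319748-91320340 of mm9, had 51 fetal and 49 adult calls, and 77 of its 80 contacts lay at lower coordinates. Counts ran from 1 to 20 in fetal and from 0 to 17 in adult cells, with a median of 8 in each. Cxcl2, at chr5:91331840-91333363, had 28 fetal and 46 adult calls, the largest lean to adult calls among promoters with at least 10 calls (log2 ratio -0.70).

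Both chemokine promoters touched the same side of their cluster. They shared 37 distal bins, 46.2% of those of Cxcl1 and 63.8% of those of Cxcl2. Of the shared bins Cxcl1 had 27 fetal and 26 adult calls and Cxcl2 21 and 30. Open chromatin lay on 21 of the 37. The longest stretch of Cxcl1 covered 30 bins at chr5:91040001-91116001 with 281 fetal and 266 adult counts. Cxcl2 had a stretch of 20 bins at chr5:91068001-91118001 with 211 and 214 counts, and both stretches contained 2 bivalent bins. The bin of Pf4, the platelet factor 4 gene, was called in adult cells only for both promoters, with 14 fetal and 15 adult counts for Cxcl1 and 10 and 14 for Cxcl2. The FPKM of Pf4 was 14.2 fetal and 113 adult. Cxcl1 also touched the bin of Ppbp, another platelet chemokine gene, with 8 and 14 counts, in adult cells only. Their promoter sequences, printed above, both hold the NF-kappaB motif.

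A single contact carried most of the counts of Cxcl2. The bin chr5:91214001-91216001, 118 kb away, had 1486 fetal and 433 adult counts with infinite scores at both stages, and the other 57 contacts together had 530 and 601. It is the only contact of a silent promoter with at least 1000 counts, and without it the summed fetal over adult count ratio of all silent contacts was 1.13 in place of 1.24. Over the whole first batch it was 1.17, and 1.09 without its 48 contacts of at least 1000 counts. In the GRCm38.p6 gene list the gene that follows Pf4 towards Cxcl1 is Cxcl3, a paralog of Cxcl2. Whether this bin holds it, and how reads matching both genes were treated, was not tested.

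Of the remaining chemokine genes, Cxcl12, the stromal factor that retains stem cells in the marrow, had 13 fetal and 9 adult calls, all to higher coordinates with a median distance of 426 kb. Its top contact, 262 kb away, ended at an active enhancer of the fetal population and had 7 fetal and 15 adult counts. Ccl7 had 10 fetal and 11 adult calls, and its neighbour Ccl12, a monocyte attractant like Ccl7, had 2 and 7. Cxcl10, induced by interferon, had 7 and 6.

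Of these groups the macrophage-linked promoters had the highest fetal share. The 4 promoters of Ms4a7 and Gpr34 had 37 fetal and 8 adult calls, and 83.7% (69.3 to 93.2, n = 43) of their stage-specific contacts were fetal. Ms4a7, which encodes a membrane protein of the MS4A family, had 13 fetal and 2 adult calls (log2 ratio 2.22), and its fragment ends where that of Ms4a7_2 begins. Ms4a7_2 had 15 and 3 calls and Ms4a7_1 5 and 1. Counts per contact of Ms4a7 ran from 2 to 10 (median 6) in fetal and from 0 to 7 (median 2) in adult cells, so the ranges overlapped and each contact rested on few counts. The top contact of Ms4a7_2, 482 kb away at the promoter bin of Stx3, had 10 fetal and 2 adult counts. Neither gene is among the 21 captured myeloid and macrophage genes given above, which all had a higher fetal FPKM. Gpr34_1 had an FPKM of 0.0117 fetal and 0.0238 adult. Some promoters outside the groups leaned far as well, such as Fam38b with 10 fetal and 2 adult calls and Cald1 with 13 and 3. The 17 ungrouped promoters together had a fetal share of 62.8%. The part of mature cells in this lean was not tested.

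Among the 12 promoters of signalling and matrix genes 7 had more fetal and 4 more adult calls, with 232 fetal and 190 adult calls in all. Their fetal share of 58.1% (51.8 to 64.1) was near the 59.8% of all silent promoters. Tgfb2 had 36 fetal and 15 adult calls, and all 44 contacts lay at lower coordinates. The fetal count was higher at 31, where 29 of the 44 were listed for a fetal call alone. Its top adult contact, 133 kb away, had 9 fetal and 17 adult counts with scores of 2.01 and 8.46, against the direction of the promoter as a whole. Eln had 35 fetal and 39 adult calls and a stretch of 36 bins at 102 to 190 kb with 329 fetal and 346 adult counts. Edn1, the endothelin gene, had 7 fetal and 2 adult calls and touched 3 active enhancer bins and 1 active promoter bin.

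Sost had 16 fetal and 21 adult calls. A stretch of 12 bins at chr11:101768001-101794001, 35.4 to 59.4 kb from the promoter, held 467 fetal and 522 adult counts. The top bin, chr11:101780001-101782001, had 72 and 107 counts with scores of 7.32 and 17.5, and was open in the fetal population only. Sost touched 3 poised bins at 159 to 167 kb and 1 bivalent bin, and 0 active ones.

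All 4 promoters of vessel genes had more fetal than adult calls, but by 1 call at Madcam1 and Flt1. Their fetal share of 58.1% (46.1 to 69.5) was near that of all silent promoters. Pcdh12, with 48 fetal and 40 adult calls, touched the most bins with a bivalent or poised mark, 6 bivalent and 8 poised, 13 bins in all. Its longest stretch had 28 bins at 245 to 317 kb with 282 fetal and 260 adult counts, of which 2 were bivalent and 2 poised. Within it the bin of Arap3, a signalling gene of endothelial cells, had 6 fetal and 15 adult counts and was called in adult cells only. Madcam1 had 21 fetal and 20 adult calls, and its stretch of 18 bins at 44.2 to 92.2 kb held 363 fetal and 273 adult counts with 2 bivalent and 2 poised bins, all 4 marked in the fetal population only. Flt1 had 2 fetal and 1 adult calls.

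Prnd, which encodes the prion-like protein doppel, touched the most active bins of any silent promoter, 11 of 37. It had 26 fetal and 25 adult calls and an FPKM of 0.0129 fetal and 0.0774 adult. A stretch of 15 bins at chr2:131634001-131674001, 104 to 142 kb away, held 312 fetal and 310 adult counts. Its top bin, chr2:131648001-131650001, was an active enhancer in the fetal population and had 25 fetal and 41 adult counts with scores of 6.08 and 23.2. Thus the bin carried the mark at the stage with the lower count. Crybb1, a lens crystallin gene, had 9 fetal and 13 adult calls. Its top contact, 69.5 kb away at the active promoter of Tfip11, a splicing factor gene, had 13 fetal and 31 adult counts and was called in adult cells only. Tead4, an effector of Hippo signalling that was not placed in the group of transcription factors, had 4 fetal and 6 adult calls. Ptprg, a receptor phosphatase gene, leaned the other way with 19 fetal and 5 adult calls. Within 500 kb of the listed start of the gene there were 0 other protein-coding genes.

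**Figure D5:**
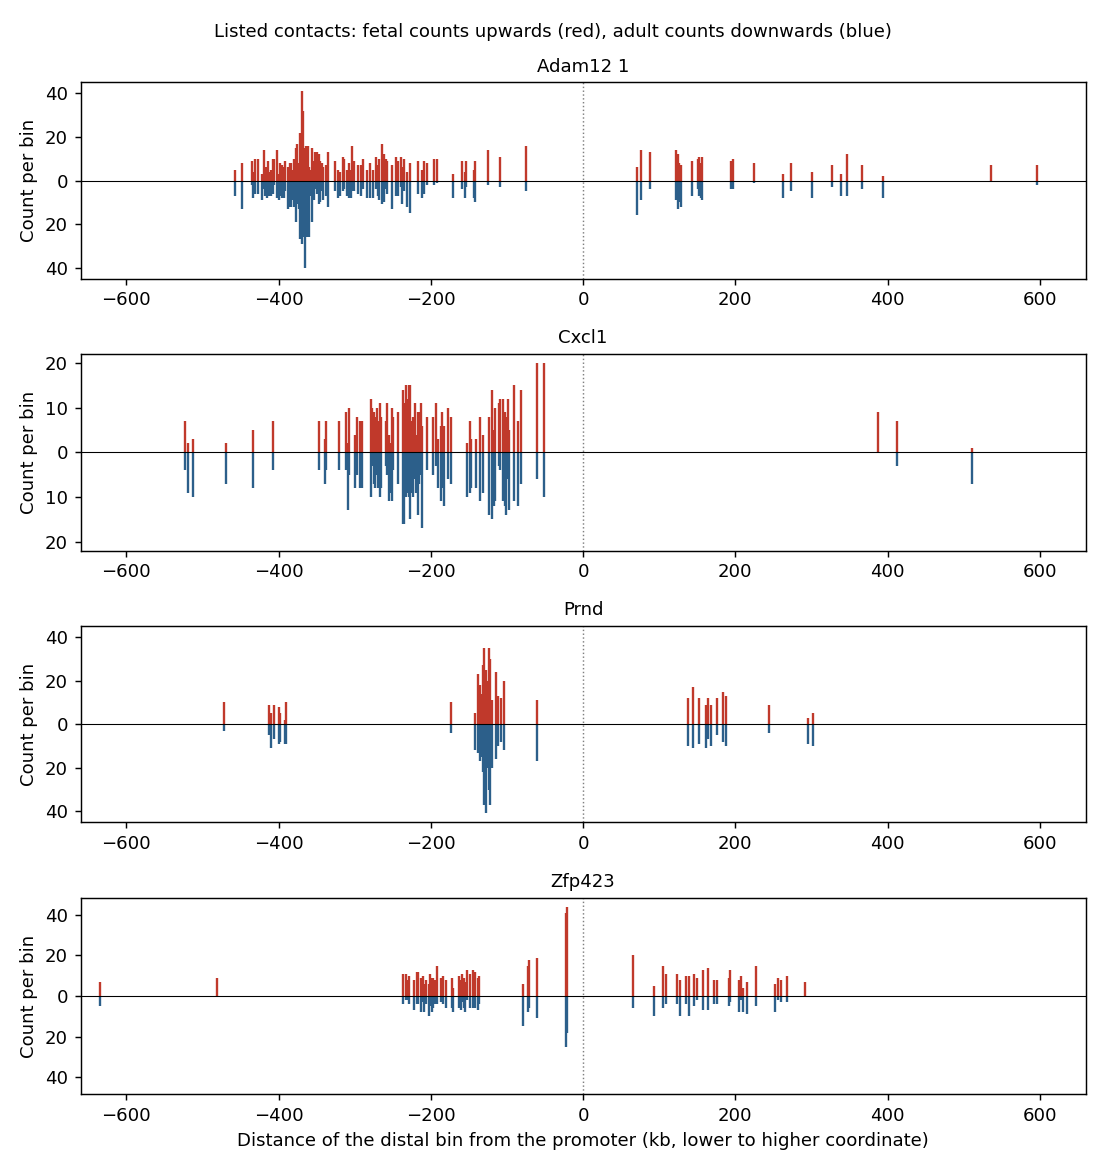
Counts of the listed contacts of 4 silent promoters (y axis, fetal upwards in red and adult downwards in blue) by distance of the 2 kb bin from the promoter (x axis, kb, negative towards lower coordinates). Adam12_1 and Prnd show a dense peak at both stages (482 and 524 counts over 45 bins, 312 and 310 over 15 bins), Cxcl1 contacts lie almost all on the lower side (77 of 80), and Zfp423 has mostly higher fetal counts (55 of 67 contacts).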

How the data were processed

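Members and gene lists were chosen with earlier results of these data known. Per the submitters' processing notes, Trim Galore 0.41, Bowtie2 2.2.2 and the build mm9 were used; their roles, read filters and duplicate treatment are not given in the sources used here. The authors deposited, per promoter and 2 kb bin, whole-number counts and a score, the −log10 of a p-value (0 where not called), each pooled over the 2 libraries of a population and batch. The authors deposited FPKM per promoter, and 0 or 1 marks of distal bins as other values, with no statement of how they were made. FPKM differed between promoters of the same gene, as in fetal cells at Adam12 (0.0484), Adam12_1 (0.0555) and Adam12_2 (0.0785). A silent promoter therefore need not mean a silent gene. Whether counts were summed or averaged is not given.

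From these, shares with Clopper-Pearson 95% intervals, medians with order-statistic intervals, Newcombe intervals of differences and log2 count ratios (pseudocount 1) were computed (Python 3.11.15, pandas 2.3.3, SciPy 1.17.1) and tested on simulated data. Distance ran between the middles of fragment and bin. No test over samples could be fitted, so no p-value is given. RefSeq GRCm38.p6 gave gene names, neighbours and promoter windows. All 44 gene names matched. Named promoters were the 5 with the most calls, the 3 leaning most to each stage (at least 10 calls), the 3 with the most bivalent or poised bins, the 3 with the most active bins, and the 5 developmental factors with the most calls. Others were named after their values were seen. Alternatives are given in the closing section.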

Additional observations from a re-analysis of the deposited data

Results flagged for a closer look

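One contact of a silent promoter lay on another chromosome, outside the comparisons above. Ccl7 listed the bin chr19:29134001-29136001 (mm9) with 33 fetal and 0 adult counts and a fetal score of 37.6. No control libraries were used here. The count of 0 allows up to 3 counts in adult cells, a bound for counting error of independent reads only. How duplicate reads were treated is not given, so the number of molecules behind the 33 counts is unknown. The first batch listed 654 contacts between chromosomes, of which 374 were called at both stages, 216 in fetal cells only and 64 in adult cells only.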

How the results depend on the processing

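No paired analysis was possible because each deposited value already pools the libraries of a population within its batch. The replicate numbers of the labels therefore have no values of their own, and no library could be left out. Over 19 alternatives and 134 comparisons, 109 values stayed within a set range and 25 moved past it. Of all these, 0 reversed a difference whose interval excluded 0. The range was the counting-error interval of the difference for shares. For distance and count ratio it was that of the silent median alone, and for contacts per promoter a fixed fold range around the main median. Values below are silent minus expressed, except medians of contacts. With silent set to FPKM exactly 0, active promoters stood at -19.0 points and distance at 51.5 kb. With FPKM under 0.5, active promoters stood at -14.9, active enhancers at -8.17 and open chromatin at -15.5 points, and distance at 31.6 kb. At a p-value 10 times smaller, the median of contacts was 6.5 per silent and 8 per expressed promoter, the fetal share 13.4 and active promoters -23.9 points. With bins merged the median of contacts was 10 for silent and 10 for expressed promoters. Active promoters stood at -15.4 with an expressed limit of FPKM 5, and at -20.8 with equal promoter weights, where poised stood at 0.540.

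The split by gene density was added after seeing the data, as were leaving out Zfp423, Pcdh12 or the Cxcl1 and Cxcl2 pair, expressed promoters not marked as differentially expressed, weighting by distance, and role groups without 1 promoter. At low density, active promoters stood at -8.32, active enhancers at -15.8, open chromatin at -24.0 and bivalent at -0.182 points, distance at 53.9 kb and the log2 count ratio at 0.36. At high density, the fetal share stood at 3.49, active enhancers at -7.65, open chromatin at -13.7 and bivalent at 2.10 points, distance at 20.5 kb and the log2 count ratio at 0.031. The cause was not tested. Low counts per contact (median 9 per call in either population) limit single contacts, and every silent promoter was captured in 1 batch.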
